A study of Lobosphaera incisa with 32 samples.

Results

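The genes of fatty acid β-oxidation that the study monitored were followed in the transcriptome of the green microalga Lobosphaera incisa. They are KAT (g8556), MFP (g12483) and ABC (g1747), chosen by their gene IDs, and they are 3 of the 16722 gene rows. All 3 were found in every condition, and their 4 transcript rows are among 20212. The gene names and roles come from the study, because the tables pair no names with the IDs.

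The strain, SAG 2468, was grown axenically in modified BG-11 medium aerated with CO2-enriched air. Control cells were taken at 0 h from nutrient-replete, logarithmically growing cultures in normal light (NL), 75 µmol photons per square metre and second. Washed cells were then moved to medium without nitrogen (N) and sampled at 12 h in high light (HL), 150 µmol photons, at 72 h under NL and at 72 h under HL, here named Nst12hHL, Nst72hNL and Nst72hHL as in the labels. Each condition has 2 cultures with 4 technical replicates each, 8 samples in all, but the deposited sheets hold 1 pooled value per condition. The spread between cultures therefore cannot be seen, no difference below has a replicate check in these values, and none was tested here.

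The pooled fragments assigned to genes came to 148630272 in Control, 285924034 in Nst12hHL, 329774484 in Nst72hNL and 214719396 in Nst72hHL. Levels are given in FPKM, the fragments of a gene per kilobase of transcript, scaled to the mapped fragments of the pool, so that genes of different length can be set side by side. The 95% intervals of a level are those deposited with it and cover counting and the assignment of reads. Intervals of a ratio were computed from the estimated fragment counts with an exact binomial method and cover counting only. Control is the only replete condition. Time and N cannot be told apart in any comparison with it, and in Nst12hHL and Nst72hHL light cannot be told apart from either.

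β-oxidation shortens fatty acids from the carboxyl end and releases acetyl-CoA. In plants it takes place in peroxisomes, where it breaks down the fatty acids of storage oil in germinating seeds. ABC is an ABC transporter of the D family; in Arabidopsis such a transporter brings fatty acyl substrates into the peroxisome. An acyl-CoA oxidase starts each round, the multifunctional protein MFP hydrates the double bond and oxidizes the product, and the 3-ketoacyl-CoA thiolase KAT cleaves off acetyl-CoA. In oleaginous algae without N, triacylglycerol is built up while membrane lipids are broken down. The oxidase and the acyl-CoA synthetases of the pathway were not analysed here, since no source used here gives their IDs.

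ABC, the transporter, had the lowest level of the 3 genes in every condition and the narrowest range of levels. Its FPKM was 25.0 in Control (95% interval 24.6 to 25.3), 23.2 in Nst12hHL (23.0 to 23.5), 22.9 in Nst72hNL (22.6 to 23.1) and 20.9 in Nst72hHL (20.6 to 21.1). The replete culture thus gave the highest value and 72 h under HL the lowest, while the intervals of Nst12hHL and Nst72hNL overlapped. The ratio to Control was 0.931 at 12 h, 0.916 at 72 h under NL and 0.835 at 72 h under HL. In TPM, which scales the summed transcripts of each condition to one fixed total, the ratios were 1.06, 1.11 and 0.965, so at 12 h and at 72 h under NL even the side of 1 on which ABC lay depended on the unit.

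MFP, the hydratase and dehydrogenase, had the highest level of the 3 genes in each condition and was higher in all 3 N-deprived conditions than in Control. Its FPKM was 75.0 in Control (74.1 to 75.8), 108 in Nst12hHL (107 to 109), 126.5 in Nst72hNL (126 to 127) and 138 in Nst72hHL (137 to 139). No intervals of these levels overlapped. The ratio to Control was 1.44 at 12 h (95% counting interval 1.42 to 1.46), 1.69 at 72 h under NL (1.67 to 1.71) and 1.84 at 72 h under HL (1.82 to 1.87). MFP stayed above its Control level, and in the same order of conditions, with TPM as well as after median-of-ratios scaling.

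KAT, the thiolase, had similar FPKM in both HL conditions and lower FPKM in both NL conditions. Its FPKM was 63.5 in Control (62.6 to 64.4), 91.3 in Nst12hHL (90.5 to 92.1), 67.6 in Nst72hNL (67.0 to 68.3) and 90.1 in Nst72hHL (89.2 to 91.0). The deposited intervals of Nst12hHL and Nst72hHL overlapped, while the counting interval of the ratio of Nst72hHL to Nst12hHL, 0.973 to 0.999, lay just below 1. Median-of-ratios scaling reversed the order of both. The ratio to Control was 1.44 at 12 h (1.42 to 1.46), 1.07 at 72 h under NL (1.05 to 1.08) and 1.42 at 72 h under HL (1.40 to 1.44). In TPM these ratios were 1.64, 1.29 and 1.64, so how far KAT at 72 h under NL lay from Control depended on the unit.

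**Figure D1:**
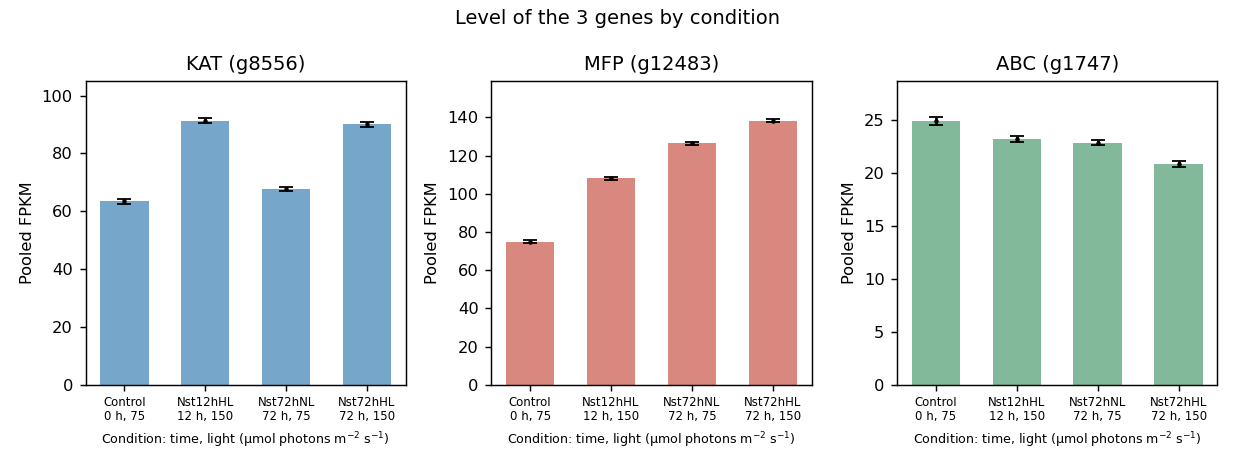
Pooled FPKM of KAT, MFP and ABC (y axes, each from 0) in the 4 conditions (x axis, with time and light); bars are the pooled values and error bars the deposited 95% intervals, which hold no spread between cultures. KAT stood at 91.3 and 90.1 under HL against 63.5 and 67.6 under NL, MFP was higher in each N-deprived condition than in Control, and ABC lay between 20.9 and 25.0 throughout.

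Among all genes, MFP and KAT were abundant and ABC was moderate. MFP lay above 92.3% of all genes in Control and above 94.4%, 95.7% and 95.9% in Nst12hHL, Nst72hNL and Nst72hHL. For KAT these shares were 90.7%, 93.0%, 91.2% and 93.1%, and for ABC 75.0%, 68.2%, 73.9% and 70.9%. On the TPM scale MFP had 112, 184, 229 and 238 in the same order of conditions. KAT had 94.7, 155, 122 and 155 TPM, and ABC had 37.2, 39.6, 41.4 and 35.9 TPM. ABC was also the longest of the 3, with 4691 bases against 2815 for MFP and 1950 for KAT, where the median gene had 1724. It was longer than 95.9% of all genes.

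The median gene also differed between these pooled libraries, and the 3 genes were read against it. Over the 14043 genes that reached 1 FPKM in either condition, the median ratio of Nst12hHL to Control was 1.17, a log2 shift of 0.22. Relative to that median gene, the log2 ratios of KAT and MFP were 0.30 each and that of ABC was -0.33. At 72 h the median ratio was 0.970 under NL and 0.947 under HL, log2 shifts of -0.04 and -0.08. Relative to it, the log2 ratios under NL and HL were 0.80 and 0.96 for MFP, 0.14 and 0.58 for KAT, and -0.08 and -0.18 for ABC. With TPM the log2 shifts against Control were all positive, 0.42 at 12 h, 0.23 at 72 h under NL and 0.13 at 72 h under HL. At 72 h the direction of the median gene thus depended on the unit.

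None of the 3 genes differed from Control by 1.5-fold in FPKM at 12 h, where 31.5% of all genes were higher and 12.6% lower by that factor or more. At 72 h under NL 1 of the 3, MFP, was past it, against 21.6% of all genes higher and 27.1% lower. At 72 h under HL it was again MFP alone, against 20.5% higher and 27.5% lower. The median ratio of the 3 genes was 1.44 at 12 h, 1.07 at 72 h under NL and 1.42 at 72 h under HL, that of KAT each time. With so few members, 1 of 3 past a factor that so many genes exceed is no sign that the genes stand apart. By rank, the MFP ratio lay above that of 66.0% of genes at 12 h, 83.3% at 72 h under NL and 86.2% at 72 h under HL. KAT lay above 65.9%, 57.1% and 77.0%, and ABC above 31.3%, 46.0% and 40.3%.

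**Figure D2:**
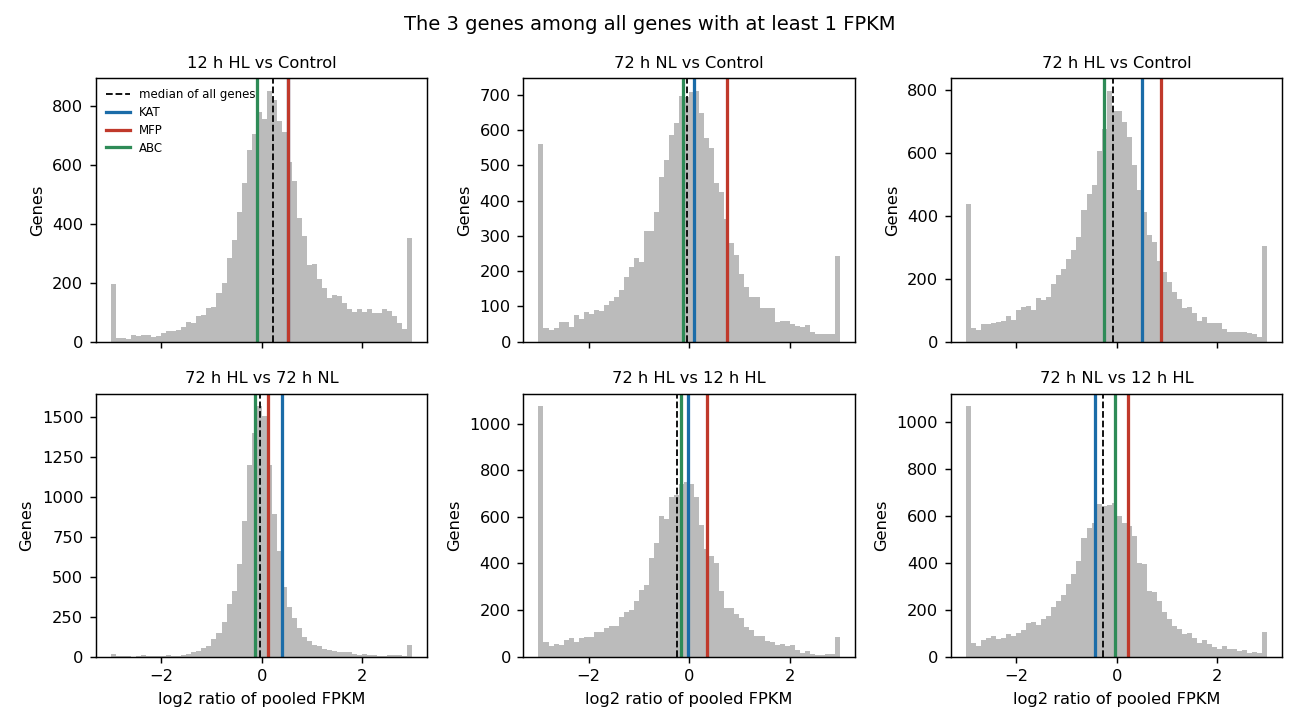
Histograms of the log2 ratio of pooled FPKM over all genes that reached 1 FPKM in either condition, for the 6 pairs of conditions (x axis clipped, so that the end bars hold all genes beyond; y axis, number of genes), with the median gene as a dashed line and KAT, MFP and ABC as coloured lines. The 3 genes sit in the body of each distribution, the KAT and MFP lines coincide at 12 h against Control, where the ratios are 1.44 each, and KAT is farthest from the median in the comparison of lights at 72 h.

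Between the lights at 72 h without N, KAT was the gene that differed most. Its FPKM of 90.1 under HL was 1.33 times the 67.6 under NL (counting interval 1.31 to 1.35), a ratio above that of 86.0% of genes, while the median gene had 0.981. MFP had a ratio of 1.09 and ABC of 0.912. None of the 3 was past 1.5-fold, and few genes were, 9.28% higher and 8.78% lower. This pair differs in light alone by the labels, at equal time and N supply.

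From 12 h to 72 h under HL, MFP was higher at the later time, with a ratio of 1.28 (1.27 to 1.29). KAT had a ratio of 0.986 (0.973 to 0.999) and ABC of 0.897 (0.882 to 0.913), at a median gene of 0.851. Relative to that median the log2 ratios were 0.59 for MFP, 0.21 for KAT and 0.08 for ABC, so for KAT and ABC the side of 1 depended on the scaling. None was past 1.5-fold in FPKM, against 14.8% of all genes higher and 33.9% lower. Against Nst12hHL, Nst72hNL had ratios of 0.740 for KAT, 1.17 for MFP and 0.984 for ABC. For ABC the side of 1 again depended on the scaling, with 1.05 in TPM and 1.18 relative to the median gene. Here too none of the 3 was past 1.5-fold, against 16.5% higher and 36.4% lower, and light and time differ together.

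The balance between the 3 genes does not depend on how the libraries are scaled, since both genes of a pair are measured in the same pool. MFP had 1.18 times the FPKM of KAT in Control (counting interval 1.160 to 1.203) and 1.18 times in Nst12hHL (1.170 to 1.196). The pair thus kept one balance between the replete culture and 12 h. At 72 h MFP stood at 1.87 times KAT under NL (1.85 to 1.89) and at 1.54 times under HL (1.52 to 1.55). The shift towards MFP was therefore seen at 72 h in both lights and was larger under NL. There the ratio of KAT to its Control level, which does depend on the scaling, was 1.07 in FPKM and 1.29 in TPM.

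Relative to the transporter, both enzymes had higher levels in the N-deprived conditions than in Control. KAT had 2.54 times the FPKM of ABC in Control, 3.93 times in Nst12hHL, 2.96 times in Nst72hNL and 4.32 times in Nst72hHL. For MFP over ABC the values were 3.00, 4.65, 5.53 and 6.63. None of the counting intervals of these ratios overlapped between conditions. The ratio of MFP to ABC in Nst72hHL was 2.21 times that in Control, the widest change among the 3 pairs, and that of KAT to ABC 1.70 times.

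**Figure D3:**
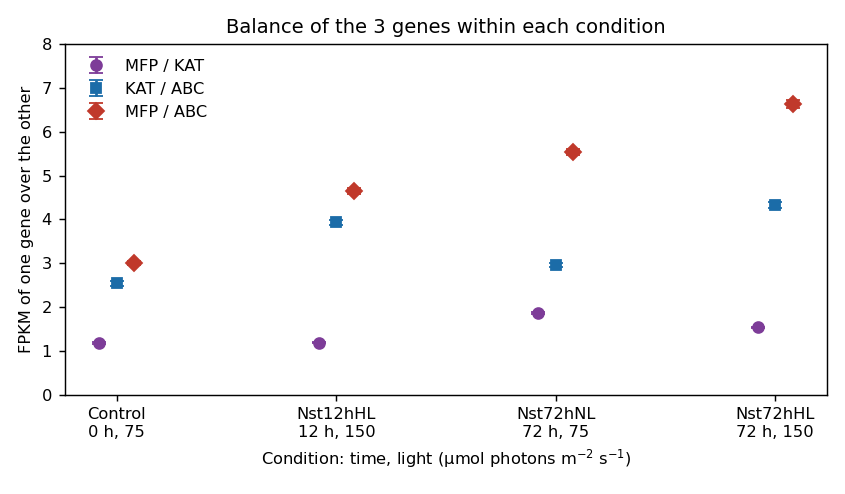
FPKM of one gene over that of another within the same pooled condition (y axis, from 0) for MFP over KAT, KAT over ABC and MFP over ABC in the 4 conditions (x axis); error bars are 95% exact counting intervals, mostly smaller than the symbols. MFP over KAT was 1.18 in Control and Nst12hHL and 1.87 and 1.54 at 72 h, and both ratios over ABC were higher in every N-deprived condition than in Control.

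The study normalized its qRT-PCR to SNRP, a small nuclear ribonucleoprotein, and COX3, a subunit of cytochrome c oxidase. The same scaling was applied to the FPKM values with the geometric mean of both genes, which was 249 FPKM in Control, 275 in Nst12hHL, 251 in Nst72hNL and 254 in Nst72hHL. MFP then had 0.301 of the reference level in Control and 0.392, 0.503 and 0.545 in Nst12hHL, Nst72hNL and Nst72hHL. KAT had 0.254, 0.332, 0.269 and 0.355, and ABC 0.1001, 0.0844, 0.0910 and 0.0822. Relative to Control the ratios were 1.31, 1.67 and 1.81 for MFP, 1.30, 1.06 and 1.40 for KAT, and 0.843, 0.909 and 0.821 for ABC. On this scale all of the N-deprived values of MFP and KAT lay above Control and all of those of ABC below it.

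**Figure D4:**
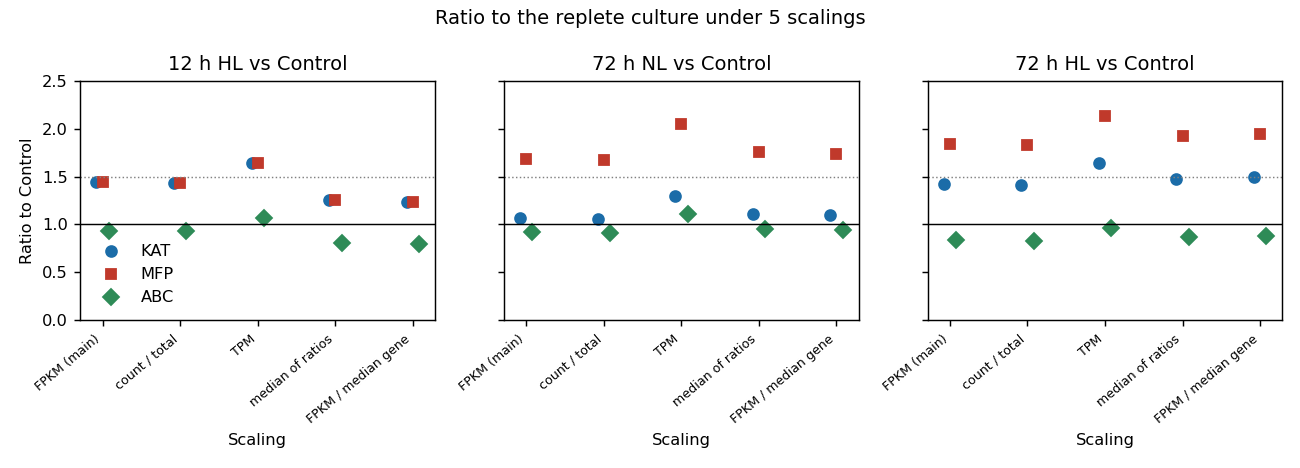
Ratio to Control of KAT, MFP and ABC (y axis, from 0; solid line at 1, dotted line at 1.5) at 12 h and at 72 h under NL and HL, with 5 scalings along the x axis. MFP and KAT lay above 1 with each of the 5, from 1.23 to 2.13 for MFP, while ABC was above 1 with TPM at 12 h (1.06) and at 72 h under NL (1.11) and below 1 otherwise.

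MFP and ABC have 1 transcript each, as do 85.0% of all genes, so their gene and transcript rows are the same. KAT has 2, g8556.t1 of 1950 bases and g8556.t2, which is 18 bases longer. The first carried 99.8% of the KAT signal in Control, 99.6% in Nst12hHL, 99.8% in Nst72hNL and 99.8% in Nst72hHL. The second had 0.25%, 0.39%, 0.16% and 0.18%, which rest on 47, 204, 72 and 68 estimated fragments out of 18529, 51093, 43553 and 37822. Exact binomial 95% intervals of these shares of fragments were 0.186% to 0.337% in Control, 0.346% to 0.458% in Nst12hHL, 0.129% to 0.208% in Nst72hNL and 0.140% to 0.228% in Nst72hHL.

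By counting alone the share of g8556.t2 at 12 h lay above the others, but counting leaves out the assignment of reads between the 2 transcripts. The FPKM of g8556.t2 was 0.16 in Control with a deposited interval of 0.0239 to 0.511, 0.36 in Nst12hHL (0.174 to 0.653), 0.11 in Nst72hNL (0.0414 to 0.333) and 0.16 in Nst72hHL (0.0345 to 0.422). All of these intervals overlapped, and they were 4.85 to 5.74 times as wide as counting alone gives. The intervals of the shares cover counting only, and those of the FPKM describe a level and not a share. Whether the use of g8556.t2 differed between conditions thus cannot be decided from these values. For the gene rows of the 3 genes the deposited intervals were 0.989 to 1.01 times the counting width. Reads shared with other genes thus added little to these intervals, which hold no spread between cultures.

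**Figure D5:**
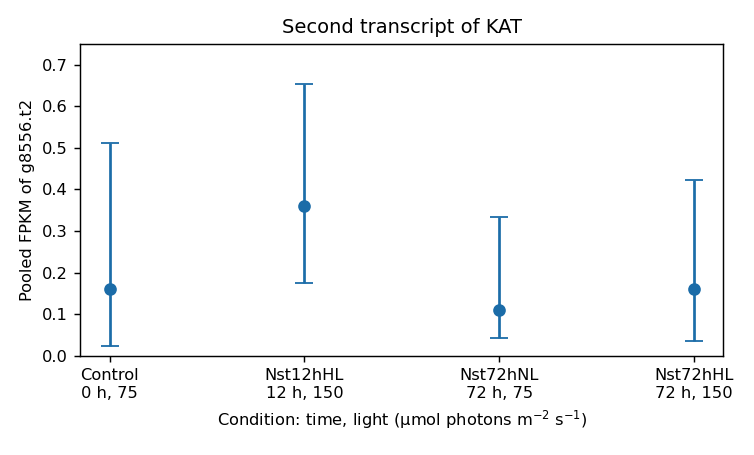
Pooled FPKM of the transcript g8556.t2 of KAT (y axis, from 0) in the 4 conditions (x axis); points are the pooled estimates and error bars the deposited 95% intervals. The point of Nst12hHL, 0.36, is the highest, but its interval of 0.174 to 0.653 overlaps those of the other 3 conditions.

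Among 1200 genes with 2 transcripts and a mean of at least 10 FPKM, the less used transcript had a median share of 10.9% in Control and 10.5%, 12.75% and 12.0% in Nst12hHL, Nst72hNL and Nst72hHL. The share of g8556.t2 exceeded that of 11.2% of these genes in Control, 13.2% in Nst12hHL, 7.33% in Nst72hNL and 7.50% in Nst72hHL. Such low shares were not rare: the less used transcript had under 1% in 20.2% of these genes in Control. In Nst12hHL, Nst72hNL and Nst72hHL this held for 19.5%, 18.7% and 18.6%. Over the 4 conditions the share of g8556.t2 ranged by 0.23 percentage points, against 5.54 for the median of these genes, which follows from its low values. KAT is thus close to a single-transcript gene in all 4 conditions, and its gene-level values describe g8556.t1.

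The other 7 genes of the qRT-PCR list had larger or different patterns. MLDP (g555), a structural protein of lipid droplets, stood at 5.75 times its Control FPKM at 12 h, 3.45 times at 72 h under NL and 4.64 times under HL. MLDP and KAT had the same order of conditions by FPKM, Nst12hHL, Nst72hHL, Nst72hNL and Control, as did 5.89% of 8724 genes with a mean of at least 10 FPKM. With median-of-ratios scaling KAT was highest in Nst72hHL and MLDP still in Nst12hHL. Between lights at 72 h MLDP had a ratio of 1.34, beside the 1.33 of KAT.

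MFP shared its order, Nst72hHL, Nst72hNL, Nst12hHL and Control, with ATG8 (g4496), the autophagy protein that is joined to autophagosome membranes, and with 7.57% of those genes. ATG8 stood at 1.57, 3.12 and 3.64 times its Control FPKM in Nst12hHL, Nst72hNL and Nst72hHL, where MFP had 1.44, 1.69 and 1.84. The size of the ratios thus came closer at 12 h than at 72 h. ABC had the order Control, Nst12hHL, Nst72hNL and Nst72hHL, held by 4.65% of genes, which changed with TPM and again after median-of-ratios scaling.

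Likeness of pattern was measured as the distance between log2 ratios to Control over the 3 N-deprived conditions, with 1 FPKM added, among 8723 other genes with a mean of at least 10 FPKM. Over so few conditions many genes come close. The nearest gene to KAT was g14825 (distance 0.0561), with 13.7, 19.8, 14.4 and 19.0 FPKM in Control, Nst12hHL, Nst72hNL and Nst72hHL. The nearest to MFP was g9961 (0.0625), with 18.4, 27.1, 32.6 and 35.4 FPKM, and the nearest to ABC was g5266 (0.0311), with 55.3, 51.9, 51.8 and 46.4 FPKM. None of these 3 IDs is named in the sources used here.

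The members were not among the nearest genes to each other by this measure. MFP ranked 2508 of 8723 in likeness to KAT (distance 0.756), behind COX3 and SNRP. KAT ranked 1472 in likeness to MFP, ahead of all 7 listed genes. ABC ranked 3882 for KAT and 4725 for MFP. Of the 7 listed genes, COX3 came nearest to KAT (rank 1570, distance 0.601), PAPase (g13792), a putative acid phosphatase, nearest to MFP (rank 2819, distance 1.08) and SNRP nearest to ABC (rank 781, distance 0.374). MLDP ranked 7798 for KAT and ATG8 ranked 3856 for MFP, so a shared order of conditions went with ratios of different size.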

How the data were processed

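RNA of 32 samples (4 conditions) was sequenced by the authors. Among the tools listed by the submitters are RSEM 1.2.9 and Bowtie 1.0.0, with CASAVA 1.8, DESeq and cutadapt 1.1. The sources used here do not give the version of the assembly and annotation. Per the file headers, RSEM gave expected counts, TPM, FPKM (with posterior means and 95% intervals) and the percent share of each transcript, which the authors deposited as 1 pooled value per condition. Effective length equals length in every row (0 differ). The authors deposited fold changes, p-values and mean normalized counts of their own comparisons too, which were not used.

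A count model over replicates had been planned and could not be fitted to pooled values. Ratios of FPKM were computed with no pseudocount, for all genes that reached 1 FPKM in either condition. Clopper-Pearson 95% intervals used expected counts rounded to whole numbers. Steps were tested on simulated data. The members, the 1.5-fold factor, the lists and the rule for named genes (the 3 members, 7 listed genes and the nearest gene to each member) were chosen with earlier results of these data known. The alternatives were TPM, expected counts over their total, median-of-ratios scaling, centring on the median gene, pseudocounts of 0.1 and 1, posterior means, the most abundant transcript, and a larger and a smaller factor. Analyses used scipy 1.17.1, pandas 2.3.3 and numpy 2.4.6 in Python 3.11.15, and figures matplotlib 3.10.9.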

Additional observations from a re-analysis of the deposited data

How the results depend on the processing

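No paired analysis was possible because each sheet pools the cultures of its condition. Likewise no replicate was left out and no test per replicate was run. The authors' mean normalized counts were not used as an alternative, because their ratio is the authors' fold change. At 12 h against Control 2 of the 3 genes, KAT and MFP, were past 1.5-fold with TPM (40.5% of all genes higher and 9.27% lower), against 0 with FPKM. At 72 h under HL against Control 2 were past it with TPM (27.6% higher, 21.7% lower), KAT being added to MFP. From 12 h to 72 h under HL 1 gene, MFP, was past it with median-of-ratios scaling (22.7% higher, 25.7% lower) and with centring on the median gene (21.9% higher, 26.4% lower). With a factor of 2 in place of 1.5, 0 of the 3 were past it at 72 h under NL (11.7% higher, 17.7% lower) or HL (11.9% higher, 17.6% lower). With a smaller factor, 0.32 on the log2 scale, KAT and MFP, 2 of the 3, were past it against Control at 12 h (44.4% higher, 20.9% lower) and at 72 h under HL (29.7% higher, 37.5% lower). By that factor 1 gene was past it in each comparison between N-deprived conditions. This was KAT between lights (18.2% higher, 20.7% lower), MFP from 12 h to 72 h under HL (22.9% higher, 45.5% lower) and KAT, which was lower, for Nst72hNL against Nst12hHL (24.5% higher, 47.4% lower).

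Of 144 ratios of single genes under 8 alternatives, 49 lay outside the 95% counting interval of the FPKM ratio. At 12 h against Control, KAT and MFP each ran from 1.23 with centring on the median gene to 1.64 with TPM. On the other side of 1 lay 9 of the 144, and all of these were ratios of ABC or KAT between 0.897 and 0.986 in FPKM. They include ABC with TPM against Control (1.06 at 12 h and 1.11 at 72 h under NL). Among all genes past 1.5-fold, those that were higher made up 71.4% at 12 h, 44.4% at 72 h under NL and 42.7% at 72 h under HL, and with TPM 81.4%, 61.8% and 56.0%. With centring on the median gene the share at 12 h was 55.0%. Against Nst12hHL it was 30.4% for Nst72hHL and 31.2% for Nst72hNL, and with centring 45.3% and 47.0%. With 0 in place of a pseudocount of 1, g9961 ranked 10 in likeness to MFP, and with a minimum mean of 1 FPKM g5266 ranked 2 for ABC. The share of g8556.t2 by posterior means was 0.37% in Control, 0.44% in Nst12hHL and 0.23% at 72 h under both lights.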

Other observations

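The gap between the TPM and FPKM ratios of the 3 genes has the same size for each of them, because it is a property of the pooled libraries. The mean length of a transcript, weighted by TPM, was 1492 bases in Control, 1703 in Nst12hHL, 1811 in Nst72hNL and 1724 in Nst72hHL. The FPKM of all genes summed to 670399, 587367, 552137 and 580059 in the same order, while TPM has the same sum in each. For MFP at 72 h under NL this is the difference between a TPM ratio of 2.05 and an FPKM ratio of 1.69, and for KAT at 72 h under HL between 1.64 and 1.42.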
